A study of Mus musculus with 12 samples.

Results

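The ribosomal protein genes encode the proteins of the cytoplasmic ribosome. They were taken as every symbol of the Runx3 RNA-seq table that starts with Rpl or Rps followed by a number, a P-stalk number or the letter a, without the Rps6 kinases, Rps19bp1 and pseudogenes named -ps. The rule used names only and found 87 of 17536 genes, of which 33 carry small-subunit names, 51 large-subunit names and 3 (Rplp0, Rplp1 and Rplp2) the names of the P-stalk. The cells were chondrocytes of 5-day-old C57BL/6 mice, released by trypsin and collagenase, with the earlier digest taken as superficial zone (SFZ) cells and the later digest as deeper zone (DZ) cells, and grown as monolayers on fibronectin. R3-Cntl mice carried Runx3 fl/fl, and R3-cKO littermates carried Runx3 fl/fl with Cre driven from Col2a1, a promoter of cartilage cells. Runx3 fl/fl is thus shared by all 4 groups, which are R3-Cntl SFZ, R3-cKO SFZ, R3-Cntl DZ and R3-cKO DZ with 3 libraries each. Values are taken as FPKM (fragment counts scaled by transcript length and library size), a unit that lets levels be compared between genes. Comparisons between libraries depend on the scaling, so other scalings are given below as well.

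A ribosome is built from a small subunit, which reads the mRNA, and a large subunit, which forms peptide bonds. The P-stalk proteins on the large subunit recruit the elongation factors. Cells make ribosomal proteins in step with each other, and many of their mRNAs start with a cytosine and a run of pyrimidines (the 5′ terminal oligopyrimidine, or TOP, tract), through which the mTOR pathway controls their translation. A few genes have paralogs that are used in certain tissues, such as Rpl3l in muscle and Rpl10l and Rpl39l in the testis, and many have intronless copies made by reverse transcription.

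Before these genes are described, some properties of the libraries bear on the comparisons. Runx3 was not lower in the libraries labelled R3-cKO: it ranged from 5.98 to 10.73 FPKM in R3-Cntl SFZ, from 3.42 to 11.83 in R3-cKO SFZ, from 7.66 to 12.67 in R3-Cntl DZ and from 8.14 to 15.95 in R3-cKO DZ. These are levels over the gene as a whole, and a floxed allele can leave transcript outside the deleted part, so they do not check the genotype. The 11 chondrocyte markers summed to 4790 to 15400 FPKM in the SFZ libraries and to 15600 to 36200 FPKM in the DZ libraries, without overlap. Of 18 muscle markers, 6 were under 1 FPKM in every library, and the summed level was 172 FPKM in R3-Cntl SFZ library 2 against 6.63 to 21.8 FPKM in the other 11. The 12 macrophage markers summed to 3.98 to 232 FPKM, with the highest sums in R3-Cntl SFZ 1 and 2 and R3-cKO SFZ 1. The 4 Y-linked genes summed to 0.01 to 0.06 FPKM in the libraries numbered 2 and 3 of R3-cKO, whichever the zone, and to 12.1 to 52.4 FPKM in the other 8. Fewer cells of a kind and less RNA per cell cannot be told apart in such bulk samples.

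Most of these genes were among the most abundant transcripts of the cells. Of the 87 genes, 21 had a mean over the 12 libraries of at least 1000 FPKM, 57 lay between 100 and 1000 FPKM, 6 between 1 and 100 FPKM and 3 under 1 FPKM. They made up 53 of the 100 genes with the highest mean and 73 of the 200 highest. Rplp1, an acidic protein of the P-stalk, had the highest mean at 2475 FPKM, followed by Rpl41, the smallest protein of the large subunit, at 2319 FPKM. Rplp0, the base of the stalk, had a mean of 1760 FPKM, Rps2 1572 FPKM and Rps26 1570 FPKM. Among genes that are not copies of another member, Rps15a was the lowest, with 56.51 to 95.49 FPKM. Rpl5 and Rpl11, which together with 5S RNA can bind Mdm2 and so stabilise p53, had means of 370.5 and 785.3 FPKM. The rank order of the genes was shared by the libraries, with Spearman correlations over 84 genes of 0.952 to 0.995 between libraries, given as a description since genes are not replicates.

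The sequences that matter for reading this family are those of the copies, because short reads cannot be assigned between identical stretches. Rps27, a zinc-finger protein of the small subunit, lies at chr3:90016593-90017573 on the - strand in mm9. Rps27rt is a single-exon gene at chr9:114891515-114891858 on the - strand, and its stretch chr9:114891571-114891825 matches the Rps27 coding sequence at 255 of 255 bases. Rps27l, the paralog with introns of its own at chr9:66793893-66797323 on the + strand, shares 194 of 255 coding bases with Rps27, and its differing bases are in capitals. Rpl37rt lies at chr5:115552931-115560277 on the - strand and is annotated as a processed transcript; its exonic stretch chr5:115553237-115553530 matches the coding sequence of Rpl37 at 293 of 294 bases. The only difference is G249A, counted from the first base of the start codon, shown in capitals. The sequences below were read from the mm9 genome and the GENCODE vM1 transcripts.
Rps27 and Rps27rt: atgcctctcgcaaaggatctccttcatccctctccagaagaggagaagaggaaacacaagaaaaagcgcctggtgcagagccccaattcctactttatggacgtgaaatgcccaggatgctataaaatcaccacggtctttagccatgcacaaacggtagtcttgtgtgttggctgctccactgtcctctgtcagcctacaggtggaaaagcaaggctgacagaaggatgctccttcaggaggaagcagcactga
Rps27l: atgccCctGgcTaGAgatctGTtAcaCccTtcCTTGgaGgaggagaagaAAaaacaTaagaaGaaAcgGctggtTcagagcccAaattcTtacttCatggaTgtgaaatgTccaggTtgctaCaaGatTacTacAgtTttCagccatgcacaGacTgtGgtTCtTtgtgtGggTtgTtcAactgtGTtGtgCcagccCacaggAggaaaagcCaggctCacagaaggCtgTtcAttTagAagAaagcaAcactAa
Rpl37rt: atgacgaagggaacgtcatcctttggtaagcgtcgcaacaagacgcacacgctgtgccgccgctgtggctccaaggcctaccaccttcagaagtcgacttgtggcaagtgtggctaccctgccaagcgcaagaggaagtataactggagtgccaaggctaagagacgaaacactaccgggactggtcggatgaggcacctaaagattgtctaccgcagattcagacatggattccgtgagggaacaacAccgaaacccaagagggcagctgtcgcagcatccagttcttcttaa

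The start windows of some members are shown for their pyrimidine runs. The windows below hold the 15 bases before the RefSeq start of each gene and the 15 bases from it on (build GRCm38.p6), with the longest unbroken run of C and T in capitals. They are shown because Rps26, Rps27 and Rpl22l1 carry a pyrimidine run of 9 or 10 bases around the start, while Rpl41, Rps27rt and Rpl37rt have runs of 3 to 6 bases there. Within 20 bases on either side of the start, the longest run was 9 bases in both Rps27 and Rps27l and 6 in Rps27rt. It was 6 bases in Rpl37 and 5 in Rpl37rt, 5 in both Rpl36a and Rpl36al, 8 in Rpl39 and 7 in Rpl39l, and 5 in Rpl22 and 10 in Rpl22l1.
Rps26 (chr10:128626492-128626521, - strand): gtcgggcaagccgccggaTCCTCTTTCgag
Rpl41 (chr10:128549154-128549183, - strand): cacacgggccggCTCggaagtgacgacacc
Rps27 (chr3:90213634-90213663, - strand): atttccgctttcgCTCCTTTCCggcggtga
Rps27rt (chr9:114982725-114982754, - strand): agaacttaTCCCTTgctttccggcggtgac
Rps27l (chr9:66946071-66946100, + strand): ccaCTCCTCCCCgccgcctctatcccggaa
Rpl37 (chr15:5116598-5116627, + strand): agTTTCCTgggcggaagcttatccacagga
Rpl37rt (chr5:115110254-115110283, - strand): gTCTTCaggccagagcccgcacccagcagt
Rpl22l1 (chr3:28805493-28805522, + strand): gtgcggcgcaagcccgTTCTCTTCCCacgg
Rpl39l (chr16:10170213-10170242, + strand): ctcccaggCCTTTCCggatttccggtggtc
A run of at least 8 bases made of C and T, within 20 bases on either side of a start, was found for 31 of the 67 members present in the RefSeq promoter table (46.3%) and for 18.4% of its 27025 genes. The same run on the opposite strand, A and G, was found for 5 of the 67 members (7.46%) and for 20.2% of all genes. A match in these letters is a description of the window only, and the annotated start may not be the one used in these cells.

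The summed level of the family did not separate the groups. In R3-Cntl SFZ the 87 genes held 18.3%, 14.9% and 14.6% of all FPKM in libraries 1, 2 and 3, with a mean of 15.9% ± 2.06 (SD, n = 3). In R3-cKO SFZ they held 18.2%, 15.5% and 14%, with a mean of 15.9% ± 2.13. In R3-Cntl DZ the shares were 18.2%, 16.0% and 14.2%, with a mean of 16.1% ± 2.0. In R3-cKO DZ they were 15%, 13.9% and 14.2%, with a mean of 14.4% ± 0.569. The ranges of the groups overlapped in each comparison, and R3-cKO DZ alone had no library above 16%.

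**Figure D1:**
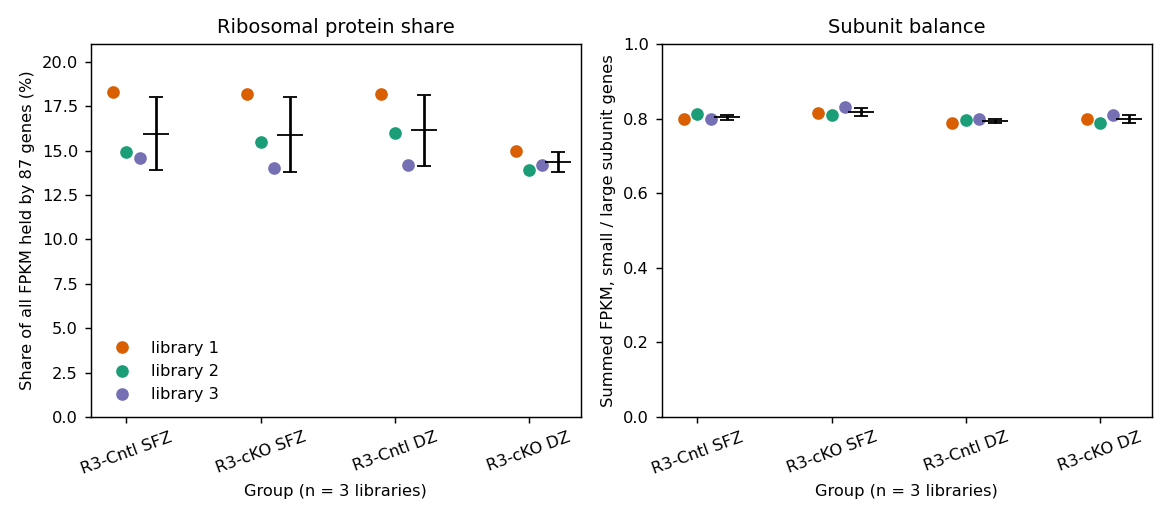
Share of all FPKM held by the 87 ribosomal protein genes (left, percent) and ratio of summed FPKM of small-subunit to large-subunit genes (right) in each of the 12 libraries, coloured by library number; bars give the group mean and SD (n = 3). Library 1 has the highest share in each group, from 15% to 18.3%, and the subunit ratio lies between 0.787 and 0.83 in all libraries.

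The library numbered 1 was the highest of its group for most members. Of 84 members with a mean of at least 1 FPKM, with ties counted for library 1, 81 were highest in library 1 of R3-Cntl SFZ, 69 in library 1 of R3-cKO SFZ, 77 in library 1 of R3-Cntl DZ and 54 in library 1 of R3-cKO DZ. Over all 11359 genes at that level the corresponding shares were 38.7%, 28.9%, 22.7% and 25.7%. The 69 and the 77 include Rps27rt only as a tie, since it was listed at 0 in all 3 libraries of both groups. For 50 members, Rps27rt with its ties among them, library 1 was the highest in all 4 groups, against 7.87% of all genes. For 9 members, namely Rplp1, Rplp2, Rps26, Rps7, Rps9, Rpl7, Rpl26, Rpl10a and Rpl37rt, the 4 libraries numbered 1 lay above the other 8, against 2.18% of all genes. The labels do not say what a library number stands for, and its part in the group differences was not tested, but the counts are given below without these libraries as well.

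**Figure D2:**
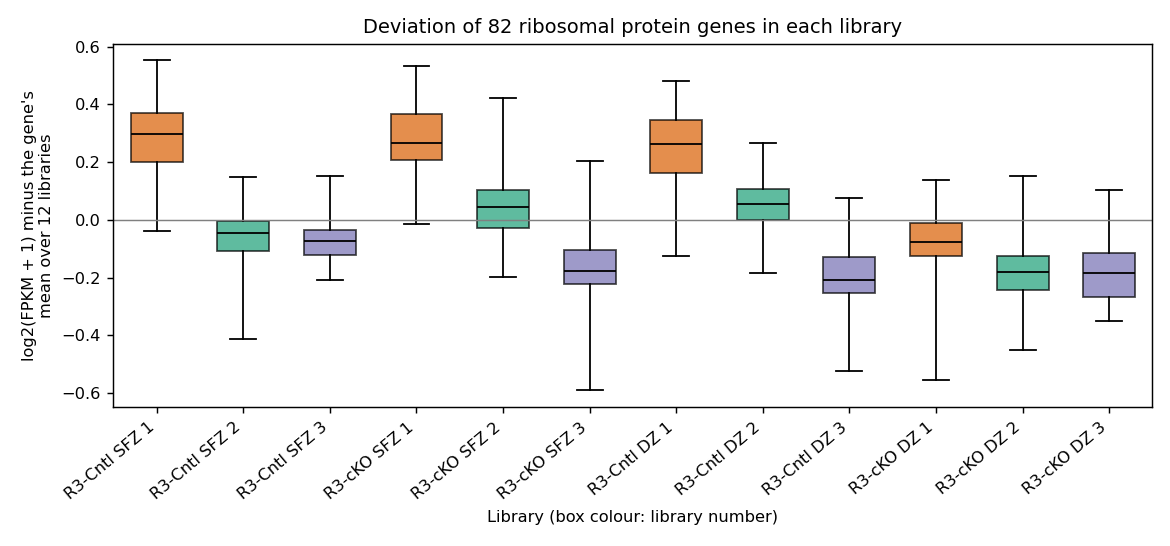
Deviation of 82 ribosomal protein genes (mean of at least 1 FPKM, without Rps27rt and Rpl37rt) from their own mean over the 12 libraries, in log2(FPKM + 1); boxes give the median and quartiles, whiskers the lowest and highest gene, and colour the library number. The boxes of library 1 lie above 0 in 3 groups, and the libraries of R3-cKO DZ all have medians below 0.

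Other parts of the translation machinery did not all follow this order of libraries. Rack1, a scaffold protein of the small subunit, was at 1060, 769 and 747 FPKM in R3-Cntl SFZ, and Fau, which encodes a fusion of a ribosomal protein with a ubiquitin-like protein, was likewise highest in library 1 of that group, at 484 FPKM. Summed over 38 translation factors, library 1 was the highest in each of the 4 groups, with 17000, 17300, 16300 and 14600 FPKM. Summed over 78 mitochondrial ribosomal proteins, the highest library was instead R3-cKO SFZ 2 at 2600 FPKM and the lowest R3-Cntl DZ 3 at 1850 FPKM. The 56 ribosome biogenesis factors, which assemble the subunits in the nucleolus, were highest in R3-Cntl DZ 2 at 2640 FPKM and lowest in R3-cKO SFZ 3 at 1580 FPKM. The 15 proliferation genes ranged 7-fold, from 123 FPKM in R3-cKO SFZ 3 to 861 FPKM in R3-Cntl SFZ 3, and this order was not that of the ribosomal proteins.

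The genes of both subunits moved largely together. The ratio of summed small-subunit to summed large-subunit FPKM was 0.804 ± 0.00723 in R3-Cntl SFZ, 0.818 ± 0.0106 in R3-cKO SFZ, 0.794 ± 0.00608 in R3-Cntl DZ and 0.798 ± 0.0105 in R3-cKO DZ (SD, n = 3 each). Its ranges did not overlap between zones, by a narrow margin. They were 0.799 to 0.812 in R3-Cntl SFZ and 0.787 to 0.798 in R3-Cntl DZ. In R3-cKO they were 0.81 to 0.83 in SFZ and 0.788 to 0.809 in DZ. Between genotypes the ranges overlapped in both zones. This ratio was not tested. Over the 12 libraries, which also share any difference of scaling, the median Pearson correlation of a member with the mean of the other members was 0.93, and 56 of 84 members had one above 0.8. After each library's median deviation was removed, the SD of a member over the 12 libraries had a median of 0.09 on the log2 scale, compared with 0.21 before. Rpl28 and Rps18, with SDs of 0.04, stayed nearest to the rest.

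The copies were among the members that followed the rest least. Rps27rt and Rpl37rt had SDs of 1.68 and 1.13, followed by Rps27l at 0.23, Rps2 at 0.23, Rpl36al at 0.22, Rpl39l at 0.21, Rps29 at 0.21, Rpl39 at 0.21 and Rps27 at 0.20. Rps29, a small zinc-binding protein of the small subunit, and Rpl39, a small protein near the peptide exit tunnel, had correlations with the mean of the others of 0.18 and 0.22. Both were lowest in R3-cKO DZ 1, at 365 and 335 FPKM, while this library was the lowest of the 12 for 8 members in all. Those 8 were Rps27, Rps29, Rps27a, Rpl11, Rpl23, Rpl24, Rpl37a and Rpl39. Rps29 and the members named here for being nearest to or farthest from the rest were chosen after their values were seen.

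**Figure D3:**
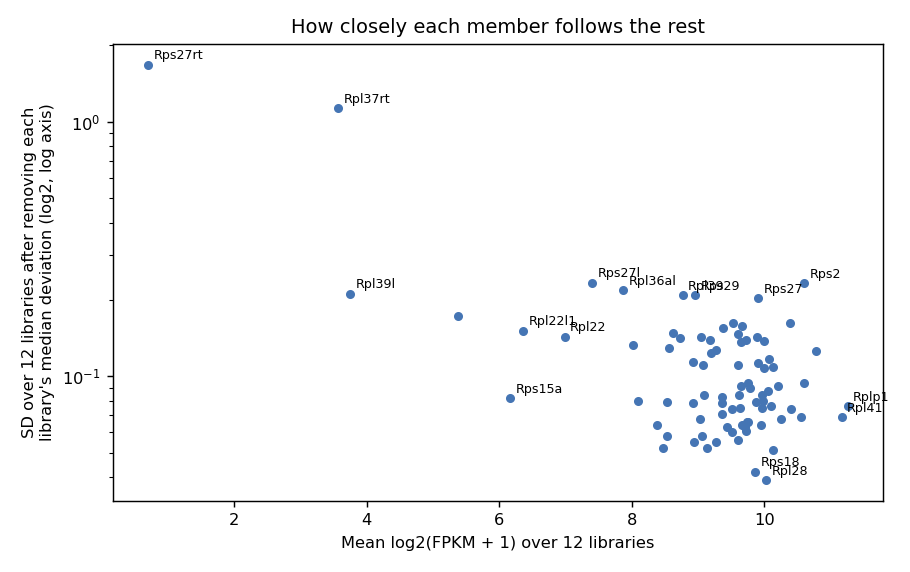
SD of each of 84 members over the 12 libraries after removal of each library's median deviation (log2 scale, logarithmic axis) against its mean log2(FPKM + 1). Rps27rt at 1.68 and Rpl37rt at 1.13 stand above the other members, the next of which, Rps27l, is at 0.23.

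The comparison of R3-cKO and R3-Cntl in the SFZ asked whether these genes differ between the genotype labels in the superficial cells. Here, 43 of the 83 members that passed the filter on low values were lower and 40 higher in the libraries labelled R3-cKO, and none of them passed the test (limma, adjusted p of 1 for each; 0 members at an unadjusted p under 0.05). Over all 11537 genes tested, 0% passed the adjusted threshold, and 0.182% and 0.113% were higher and lower at the unadjusted one. The median log2 fold change was -0.01 for the members and -0.01 for all genes, with a median SE of 0.20 for a member. Rpl39l, the testis-enriched paralog of Rpl39, had the largest value downward at -0.21 (SE 0.24), and Rps27 the largest upward at 0.16 (SE 0.18). Rpl22l1, the paralog of Rpl22, was at -0.16 and Rps27l at 0.14. No member had groups that did not overlap, against 1.45% of all genes separated upward and 0.953% downward. The direction of the family as a whole rested on single libraries: 3 members were lower without R3-cKO SFZ 3, 5 without R3-Cntl SFZ 1, 67 and 68 without R3-Cntl SFZ 2 and 3, and 73 without R3-cKO SFZ 1. In the same order, 49.9%, 51.3%, 49.1%, 58.4% and 55.2% of all genes were lower. Without all libraries numbered 1, 39 members were lower, beside 53.4% of all genes. With quantile normalization 56 members were lower, beside 45.5% of all genes.

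In the DZ, the same comparison gave lower values in the libraries labelled R3-cKO for 81 of 83 members, but no member passed the test (limma, lowest adjusted p 0.999; 0 at an unadjusted p under 0.05). Over all 11091 genes tested, 0% passed the adjusted threshold, 1.15% were lower and 2.5% higher at the unadjusted one, and 37.7% had a lower value. The median log2 fold change was -0.19 for the members and 0.05 for all genes, and it was -0.19 for the 32 small-subunit genes, -0.19 for the 48 large-subunit genes and -0.18 for the stalk. Rps7, a small-subunit protein, was at 1028, 718 and 650 FPKM in R3-Cntl DZ and at 747, 569 and 593 FPKM in R3-cKO DZ. The 2 groups of Rps7 values overlapped, and its log2 fold change was -0.31 (SE 0.22). Rps24 was at -0.29, Rpl7 at -0.29, Rps3a1 at -0.29 and Rpl26 at -0.28. The 2 members with higher values were Rpl37rt at 0.38 (SE 0.99) and Rps2 at 0.05 (SE 0.25). In the same comparison 10 of the 11 chondrocyte markers had lower values in R3-cKO DZ, with a median of -0.59 and 2 of them at an unadjusted p under 0.05, and their summed levels were 22300 to 36200 FPKM in R3-Cntl DZ and 15600 to 28400 FPKM in R3-cKO DZ. All 15 proliferation genes had higher values, with a median of 0.46, none of them at that threshold, and summed to 140 to 414 FPKM and to 130 to 697 FPKM. The 12 macrophage markers summed to 9.06 to 29.0 FPKM and to 3.98 to 7.4 FPKM, without overlap. The 2 of them that passed the filter had lower values, 1 at that threshold. The part of these differences in the values of the ribosomal proteins was not tested.

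Without overlap between the groups, 4 of 83 members, Rpl5, Rpl22 and Rpl23 among them, were lower in R3-cKO DZ, beside 2.78% of all genes, and 0 members were higher, beside 5.26%. The lower members numbered 8 with quantile normalization, beside 5.44% of all genes, and 14 with median-of-ratios size factors, beside 4.06%. Rpl23 was at 652, 627 and 599 FPKM in R3-Cntl DZ and at 511, 523 and 555 FPKM in R3-cKO DZ, a log2 fold change of -0.24 (SE 0.13). Each of the R3-cKO values of Rpl23 lay under each of the R3-Cntl values, yet its unadjusted p in limma was 0.104 and its adjusted p 0.999. With the library number as a block, 5 members were lower at an unadjusted p under 0.05, namely Rps7, Rps15a, Rpl5, Rpl21 and Rpl22l1, beside 4.98% of all genes; their adjusted p in limma was 0.269 to 0.299. Without R3-Cntl DZ 3, 8 members were lower at that threshold, beside 1.21% of all genes. The median of the members ranged from -0.07 without R3-Cntl DZ 1, where 68 were lower, to -0.30 without R3-Cntl DZ 3, where all 83 were lower, beside 0.03 and 0.04 for all genes. Without all libraries numbered 1 it was -0.11 and 75 were lower, beside 0.02 for all genes. With quantile normalization it was -0.09 and 68 were lower, beside -0.02 for all genes, of which 55% were lower. With median-of-ratios size factors it was -0.24 and 81 were lower, beside 0.00 for all genes, of which 49.1% were lower. Y-linked genes were near 0 in 2 of the 3 libraries labelled R3-cKO in each zone, and the part of the sex of the mice in these values was not tested.

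The comparison of zones within R3-Cntl asked whether DZ cells differ from SFZ cells in these genes. On the deposited scale, 72% of all genes had lower values in DZ, whereas the ribosomal proteins were divided: 33 members were higher and 50 lower, with a median log2 difference (DZ over SFZ) of -0.02 beside -0.17 for all genes. None of the 83 members passed the test (limma, lowest adjusted p 0.256; 0 at an unadjusted p under 0.05), while 1.24% of the 11336 genes passed the adjusted threshold and 22.4% were lower and 4.94% higher at the unadjusted one. On this scale no member was lower without overlap between zones, against 26.5% of all genes. Rps27l, which is known as a p53 target, was the only member that was higher without overlap on this scale, beside 5.96% of all genes. It was at 163, 126 and 166 FPKM in SFZ and at 218, 182 and 166 FPKM in DZ, a log2 difference of 0.32 (SE 0.17). The lowest DZ value, 166.37 FPKM, exceeded the highest SFZ value, 165.93 FPKM, by less than 1 FPKM. Of the 16 p53 targets listed beside it, 4 were higher and 12 lower in DZ, and none passed the adjusted threshold.

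This picture of the zones depended on the scaling. With median-of-ratios size factors the median over all genes moved from -0.17 to 0.01, and 82 of 83 members were higher in DZ, with a median of 0.17. With quantile normalization the median over all genes moved to 0.05 and that of the members stayed at -0.02. Relative to the median of all genes, the members were thus 0.14 higher in DZ as deposited, 0.17 higher with median-of-ratios size factors and 0.07 lower with quantile normalization. Without overlap between zones, 9 members were higher and 0 lower with median-of-ratios size factors, beside 15.8% and 12.8% of all genes, and 2 were higher and 7 lower with quantile normalization, beside 19.6% and 10.9%. Without R3-Cntl SFZ 1 or R3-Cntl DZ 3, 15 and 7 members were lower in DZ, beside 68.1% and 68.3% of all genes. Without R3-Cntl DZ 1 there were 74, beside 71.4%. Without all libraries numbered 1 there were 39, beside 67.9% of all genes. A direction of the family between the zones of R3-Cntl cannot be given from these data.

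Within the libraries labelled R3-cKO, 80 of 83 members had lower values in DZ than in SFZ, with a median log2 difference of -0.20 beside -0.09 for all genes, of which 65.4% had a lower value. None passed the test (limma, lowest adjusted p 0.372; 0 at an unadjusted p under 0.05), beside 0.0176% of 11336 genes at the adjusted threshold and 11.1% lower and 3.03% higher at the unadjusted one. As a share of the members, few were separated: 8 were lower in DZ without overlap, beside 16.8% of all genes, and 0 were higher without overlap, beside 4.24%. The count was 4 with quantile normalization, beside 8.05% of all genes, and 0 with median-of-ratios size factors, beside 8.6%. The lower members included Rps27, Rps28, Rps15, Rpl10, Rpl23, Rpl36 and Rpl37a. Rps27 was at 1259, 1003 and 1076 FPKM in SFZ and at 655, 820 and 965 FPKM in DZ, a log2 difference of -0.46 (SE 0.20, unadjusted p 0.0599, adjusted p 0.372 in limma). Its value without the libraries numbered 1 was -0.22, more than 1.5 times smaller. Rps12 was at -0.39, Rps28 at -0.36, Rpl36al at 0.12 and Rps27l at 0.04. With the library number as a block, 4 members, Rps12, Rps15a, Rpl21 and Rpl37a, were lower at an unadjusted p under 0.05, beside 22.8% of all genes. The median of the members was -0.09 without R3-cKO SFZ 1, close to the -0.08 of all genes. Without this library 71 members were still lower, beside 64.2% of all genes. The members' median was -0.31 without R3-cKO SFZ 3, beside -0.12 for all genes. Without all libraries numbered 1 it was -0.13 and 80 members were lower, beside -0.09 for all genes. With quantile normalization 67 members were lower, with a median of -0.07 beside 0.04 for all genes, of which 43.5% had a lower value. With median-of-ratios size factors 66 were lower, with a median of -0.06 beside 0.03 for all genes, of which 45.6% had a lower value. Markers of other cells also differed between these zones: the 9 fibroblast and tendon markers summed to 3980 to 11500 FPKM in R3-cKO SFZ and to 539 to 2210 FPKM in R3-cKO DZ, with 8 of 9 lower in DZ and 7 at an unadjusted p under 0.05. The 12 macrophage markers summed to 18.5 to 190 FPKM and to 3.98 to 7.4 FPKM, and the 3 that passed the filter were lower at that threshold. Their part in the values of the ribosomal proteins was not tested.

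**Figure D4:**
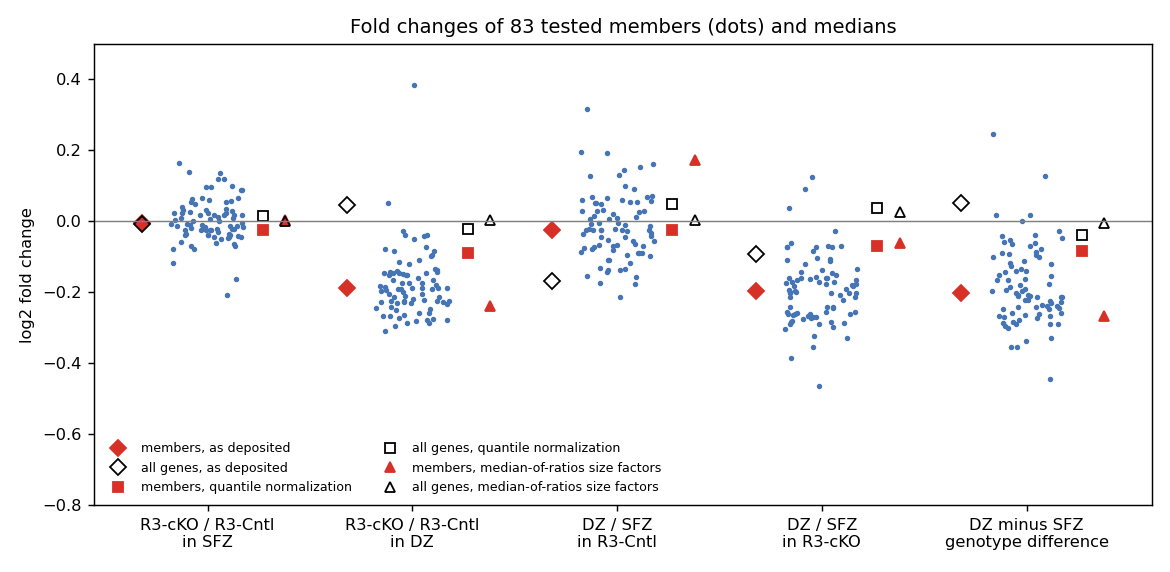
Log2 fold changes of the 83 tested members (blue dots) in the 4 comparisons and in the difference of the genotype effect between zones; red symbols give the median of the members and open symbols the median of all genes, as deposited (left) and after the other 2 scalings (right). The members' median lies at -0.19 in DZ between genotypes and at -0.20 between zones in R3-cKO, where it moves to -0.07 with quantile normalization and to -0.06 with median-of-ratios size factors, and in the zones of R3-Cntl it moves from -0.02 to 0.17 with median-of-ratios size factors.

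The test of whether the genotype difference itself differed between zones (an interaction term over all 12 libraries) gave 0 members past the adjusted or the unadjusted threshold in limma, beside 0% of 11765 genes at the adjusted one and 0.663% higher and 0.178% lower at the unadjusted one. With the library number as a block, 2 members were below 0 at an unadjusted p under 0.05, beside 0.782% of all genes (lowest adjusted p of a member 0.826 in limma). Values were below 0 for 78 of 83 members, with a median of -0.20 beside 0.05 for all genes, and the median SE of a member was 0.26. In the same fit all 15 proliferation genes were above 0, with a median of 1.66, and all 11 chondrocyte markers were below 0, with a median of -0.58, none of them at an unadjusted p under 0.05, and their part in the values of the members was not tested. Rps27 had the largest value downward at -0.44 (SE 0.24, adjusted p 0.999), followed by Rps14 at -0.36, Rpl39 at -0.35 and Rpl7 at -0.34. Rps2 was at 0.13. Leaving out 1 library in turn moved the median of the members from -0.07 without R3-Cntl DZ 1 (60 below 0) and -0.08 without R3-cKO SFZ 1 (64) and -0.11 without R3-Cntl SFZ 3 (73) to -0.30 without R3-Cntl SFZ 1 (82), -0.31 without R3-cKO SFZ 3 (83) and -0.31 without R3-Cntl DZ 3 (82). In the fits named here, 35.5% to 45.2% of all genes were below 0. Without all libraries numbered 1 the median of the members was -0.14 and 71 members were below 0, beside 45.4% of all genes. With quantile normalization it was -0.08 and 61 members were below 0, beside 56.4% of all genes. With median-of-ratios size factors it was -0.27 and 81 were below 0, beside 50.6% of all genes. The 4 comparisons share libraries, so their similar signs are not independent of each other.

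The pathways that control ribosomal protein synthesis gave no calls at the adjusted threshold. Of 13 tested regulators of TOP mRNAs, such as Mtor and Eif4ebp1, a repressor that binds the cap-binding protein eIF4E, none passed the adjusted threshold in any of the 5 fits, and Myc, which drives ribosome production, was at -0.41 (SE 0.27) between genotypes in SFZ. None of the 56 biogenesis factors passed it, with Ltv1, an assembly factor of the small subunit, closest at 0.77 (SE 0.17, adjusted p 0.0657 in limma) between the zones of R3-Cntl. Of 38 translation factors and 78 mitochondrial ribosomal proteins, none passed it in any fit. At an unadjusted p under 0.05, 1 biogenesis factor was higher (Ltv1) and 2 were lower (Sbds and Ubtf) between the zones of R3-Cntl, together with 1 higher and 1 lower mitochondrial ribosomal protein and 1 lower regulator of TOP mRNAs (Tsc2). Of all genes, 4.94% were higher and 22.4% lower there at that threshold. Between the zones of R3-cKO Ltv1 was again higher and Sbds lower, together with 1 lower translation factor (Eif3e) and 2 lower mitochondrial ribosomal proteins. The shares of all genes there were 3.03% higher and 11.1% lower. The other 3 fits gave none in these lists. Of the 56 biogenesis factors, 53 had lower values in R3-cKO SFZ than in R3-Cntl SFZ, beside 52.5% of all genes. Their median was -0.14, beside -0.01 for all genes. All 15 proliferation genes were lower there too, with a median of -1.05. The summed levels of both lists overlapped between these groups. The biogenesis factors summed to 2140 to 2360 FPKM in R3-Cntl SFZ and to 1580 to 2480 FPKM in R3-cKO SFZ. The proliferation genes summed to 309 to 861 FPKM and to 123 to 761 FPKM. Of the biogenesis factors, 18 were lower in R3-cKO DZ than in R3-Cntl DZ, beside 37.7% of all genes. Between the zones of R3-Cntl 47 were lower in DZ, beside 72%, between those of R3-cKO 15, beside 65.4%, and in the interaction 2 were below 0, beside 40.8%.

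The paralogs were expressed at very different levels. Rpl3l, the striated muscle paralog of Rpl3, did not exceed 0.07 FPKM in any library and was listed at 0 in R3-Cntl SFZ 2, the library with the highest muscle markers. Rpl10l, the testis paralog of Rpl10, did not exceed 0.1 FPKM, and Rpl32l did not exceed 0.09 FPKM. These 3 genes and Rps27rt did not pass the filter on low values. In the fits without that filter all 87 members were tested, and none was past the adjusted or the unadjusted threshold in limma. Rps4l was not found in the table.

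Other paralogs were clearly present beside their parents. Rpl22l1 was at 63.74 to 114.06 FPKM, or 50.0% to 80.4% of Rpl22 in the same library. Rpl36al, a copy of Rpl36a with 282 of 321 coding bases in common, was at 33.4% to 55.0% of its parent. Rps27l was at 12.2% to 26.5% of Rps27, Rpl7l1 at 3.0% to 5.12% of Rpl7 and Rpl39l at 1.76% to 3.71% of Rpl39. The order of these ratios, from Rpl22l1 down to Rps27l, was the same in each library, while Rpl7l1 and Rpl39l had overlapping ranges.

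The ratios of paralogs to their parents overlapped between groups. Over 5 pairs and 4 comparisons, the lowest p of an exact two-sided permutation test was 0.2, in 3 of 20 tests, the Benjamini-Hochberg adjusted value was 0.75, and the smallest p that 3 against 3 libraries allow is 0.1. The ratio of Rpl22l1 to Rpl22 was 75.2% ± 7.54 in R3-Cntl SFZ, 64.0% ± 3.0 in R3-cKO SFZ, 60.5% ± 8.75 in R3-Cntl DZ and 61.7% ± 12.4 in R3-cKO DZ (SD, n = 3 each). The ratio of Rps27l to Rps27 was 15.4% ± 2.87, 15.4% ± 4.67, 19.3% ± 1.47 and 21.5% ± 4.41 in the same order.

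The 2 copies whose symbols end in rt varied unlike the rest. Rpl37rt was at 39.29, 4.93 and 5.26 FPKM in R3-Cntl SFZ, at 29.19, 8.79 and 5.76 in R3-cKO SFZ, at 23.94, 7.11 and 4.37 in R3-Cntl DZ and at 56.82, 7.16 and 4.12 in R3-cKO DZ. All 4 libraries numbered 1 were above 20 FPKM and all others under 10 FPKM. It stood at 21.4% of Rpl37 in R3-cKO DZ 1 and at 1.70% in R3-cKO DZ 3. Rps27rt was at 8.01 FPKM in R3-Cntl SFZ 1 and at 37.12 FPKM in R3-cKO DZ 1, and was listed at 0 in the other 10 libraries. Rps27 itself was at its lowest, 655.17 FPKM, in R3-cKO DZ 1, and the sum of Rps27 and Rps27rt was still lowest there, at 692 FPKM beside 820 FPKM in the next lowest library. Since the coding sequences shown above are identical or differ at 1 base, how reads were divided between parent and copy could bear on these values. The sources used here do not give this division for reads that match more than 1 place, and its part in these values was not tested.

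**Figure D5:**
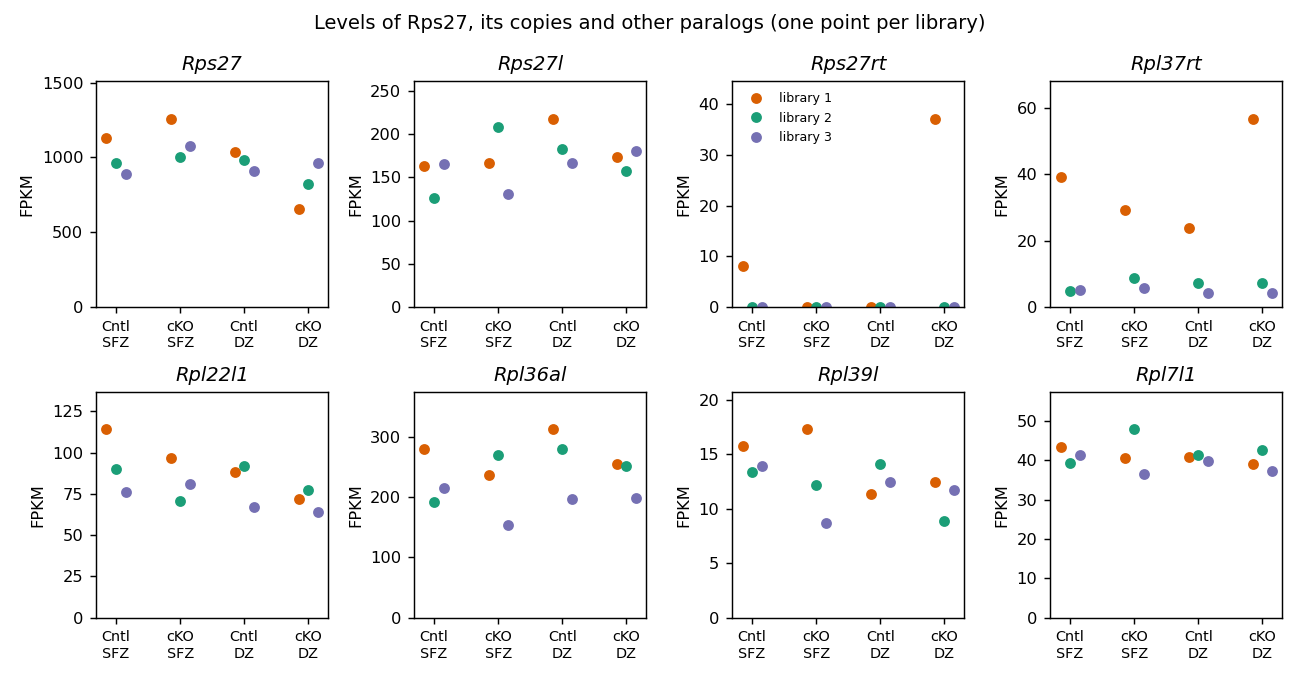
FPKM of Rps27, its paralog Rps27l and its copy Rps27rt, of Rpl37rt, and of 4 other paralogs in each of the 12 libraries, coloured by library number, on linear axes that start at 0. Rpl37rt is above 20 FPKM in the 4 libraries numbered 1, and Rps27rt is above 0 in R3-Cntl SFZ 1 and R3-cKO DZ 1.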

How the data were processed

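RNA-seq of 12 libraries (BGIseq-500, 100-bp paired reads) was mapped to mm9; the submitters' processing notes name Bowtie 0.12.2. The deposited table holds FPKM on a linear scale scaled by TMM, as the authors labelled it; that the unit is FPKM was inferred from the column totals. It gives no read counts, and low values showed no whole-read steps, so the depth behind each value is unknown. The study's methods name quantile normalization of log2 CPM and linear models; the values were used here as deposited.

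Members and lists were chosen with earlier results of these data known. Genes that reached 1 FPKM in 3 or more libraries of a fit were tested with limma 3.58.1 (R 4.3.3). It used empirical Bayes with trend on log2(FPKM + 1), a scale that understates the change of low genes. The p-values were adjusted by Benjamini-Hochberg over all genes tested. The fit was also run on simulated data with set changes much larger than those of the members. That run does not show how well changes of the members' size would be found. Each fit used the 6 libraries of its 2 groups, or all 12 for the interaction. Paralog ratios used exact permutation tests (SciPy). The study's figure legend gives 3 individual littermate mice per genotype as the source of the cells, but the sources do not say which libraries share a mouse. Same-numbered libraries deviated together over 11359 genes between genotypes in DZ (r = 0.65, 0.78 and 0.69) and between zones in R3-cKO (0.42, 0.78 and 0.65), so a fit with the library number as a block is given there beside the unblocked fit, whose values are reported first.

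Named were paralogs with their parents, the 5 highest and 5 lowest members, the 5 largest changes in each direction, Rpsa, Rplp0, Rplp1, Rplp2, Rps6, Rps19, Rps27a, Rpl5, Rpl11, Rpl38, Rpl41 and up to 3 genes of each list; any other was named after its values were seen. Positions and coding sequences came from GENCODE vM1 (mm9), which held 85 of the 87 members, with global alignment of the coding sequences (Biopython); start windows came from RefSeq (GRCm38.p6). Alternatives were other pseudocounts (0.1 and 5), filters, scalings, a replicate block, a single model and leaving out libraries. Values of some single genes are not reported here.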

Additional observations from a re-analysis of the deposited data

Results flagged for a closer look

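Rps27rt, the single-exon copy of Rps27, did not pass the filter on low values and was tested only in the fits without that filter, where no member passed the adjusted threshold. It was listed at 37.12 FPKM in R3-cKO DZ 1, above the 8.01 FPKM of R3-Cntl SFZ 1, the highest control library. The other 10 libraries were listed at 0.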

How the results depend on the processing

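No member passed the adjusted threshold under any of the alternatives run in limma, and the medians and summed levels moved by less than 1 SD between libraries within groups (0.157 to 0.209 on the log2 scale for the medians), although the median for zone in R3-Cntl turned from -0.02 to 0.17 with median-of-ratios size factors. At an unadjusted p under 0.05, where the deposited values gave 0 members, the replicate block gave 5 lower members for genotype in DZ (4.98% of all genes were lower at that threshold), 4 for zone in R3-cKO (22.8%) and 2 for the interaction (0.782%); a single model of all 12 libraries gave 3 (14.1%) and a mean of at least 10 FPKM gave 1 (9.29%) for zone in R3-cKO. For zone in R3-Cntl quantile normalization gave 1 higher member (14.9% of all genes were higher) and median-of-ratios size factors 2 (11.8%). Leaving out 1 library in turn gave 0 to 8 such members for genotype in DZ (8 without R3-Cntl DZ 3, beside 1.21% of all genes), 0 to 2 for zone in R3-cKO (2 without R3-cKO SFZ 3, beside 6.14%, and 1 without R3-cKO DZ 3, beside 8.59%) and 0 to 2 for the interaction (2 without R3-cKO DZ 3, beside 0.443%), and it moved the number of lower members from 3 to 73 for genotype in SFZ and from 7 to 74 for zone in R3-Cntl, where median-of-ratios size factors gave 1. The members without overlap, counted under 2 other scalings chosen after the data were seen, numbered 3 with quantile normalization for genotype in SFZ (1 higher and 2 lower, beside 2.11% and 0.867% of all genes). For genotype in DZ 8 were lower with quantile normalization (5.44% of all genes) and 14 with median-of-ratios size factors (4.06%). For zone in R3-Cntl there were 9 with quantile normalization, 2 higher (19.6%) and 7 lower (10.9%), and 9 with median-of-ratios size factors, all higher (15.8%). For zone in R3-cKO 4 were lower with quantile normalization (8.05%) and 0 with median-of-ratios size factors (8.6%). The fits without the libraries numbered 1 were also added after the data were seen. Between genotypes in SFZ (r = 0.79, -0.09 and -0.42) and zones in R3-Cntl (0.58, 0.11 and -0.15) the numbers did not pair the libraries, and the replicate block left 0 members at an unadjusted p under 0.05 in both. R3-Cntl SFZ 2 deviated together with library 3 of R3-cKO SFZ (r = 0.45) and of R3-Cntl DZ (0.38). R3-Cntl SFZ 3 did so with library 2 of R3-cKO SFZ (0.69) and of R3-Cntl DZ (0.58). A block that follows these values was not tested. Of 48 results with 528 alternative values, 502 stayed within the limit set for them. The limit concerned size only, so a change of sign within it, as for the median for zone in R3-Cntl, was counted as kept. Counts of 0 under both settings were counted as kept too. Of 2205 values of single members 22 moved beyond the spread. The cause of the moves was not tested, and unknown depth limits what can be said of Rpl3l, Rpl10l and Rpl32l.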
